A study of Mus musculus with 405 samples.

Results

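Cortical cultures given topotecan were compared with cultures given the vehicle alone, over all genes of the screen. Members were the 32 libraries whose titles begin with Topotecan and the 49 whose titles begin with Vehicle, 81 of the 393 libraries in the table of the screen. The cells were dissociated cortex of E15 hybrid embryos, from C57BL/6J dams mated with CAST/EiJ males. All cultures received uridine triphosphate and 5-fluoro-2′-deoxyuridine against dividing cells, so the vehicle group carried that exposure too, and were then kept for 24 h with 0.3 μM topotecan or with the solvent dimethyl sulfoxide. These are mixed cultures of neurons and glia, and a bulk library does not tell fewer cells of a type from less RNA per cell. The labels do not say that each library is a separate culture, so p-values measure the spread between these libraries, which may be technical in part.

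Topotecan traps topoisomerase 1 on DNA after the enzyme has cut a strand to relax it. RNA polymerase relies on that relaxation while it elongates, and genes that span much DNA are known to be the most exposed in neurons. The question here was which pathways and gene families moved beside gene length. Each value below is a deviation on the log2 scale from the median of that gene over the screen, and a difference is the topotecan mean minus the vehicle mean. Levels within a library are not held in that table.

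The labels were checked against long genes. Over the 184 genes longer than 500 kb, the median deviation of a topotecan library lay between -1.44 and -0.64 (median -1.02), and that of a vehicle library between -0.20 and 0.44 (median 0.04), with no overlap. No libraries were identical. Pairs of topotecan libraries correlated at a median of 0.36 and pairs of vehicle libraries at 0.03 across genes. Topotecan replicates 15 and 22 correlated most, at 0.73, and vehicle replicate 39 had the widest spread over genes. Some counts are also given without these 3 libraries, which were left out together.

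Of 13304 genes, 3300 rose and 2787 fell at an adjusted p under 0.05, which is 24.8% and 20.9%. At a difference of at least 0.5, 293 genes (2.2%) rose and 587 (4.41%) fell. The median difference over all genes was 0.03. Since the differences followed gene length, a length-adjusted fit was set beside the first, in which the trend on gene length was removed from every library over the 13053 genes with a length in mm9. It called 2665 genes higher (20.4%) and 2383 lower (18.3%), and 285 (2.18%) rose and 1.79% of genes fell by at least 0.5. The shares of all genes in each fit are the background for every count of a list below.

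Gene length ordered the differences in steps. Among 1590 genes up to 5 kb the median difference was 0.08, among 1883 genes of 50 to 100 kb it was -0.02, and among 184 genes over 500 kb it was -1.07, where 170 fell and 2 rose. The longest genes still differed from one another after adjustment: of those 184, 45 were called higher and 95 lower. Tenm1, a teneurin adhesion protein of 901 kb, fell most, at -3.20, whereas Auts2 of 1106 kb was at -0.07 and did not pass the test. The share of genes up to 100 kb that fell also differed with their level in vehicle cultures, taken as counts per kb of transcript in another table. When these genes were ranked by level and cut into 5 equal bins, 35.3% fell in the length-adjusted fit in the highest bin and 7.92% in the lowest.

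**Figure D1:**
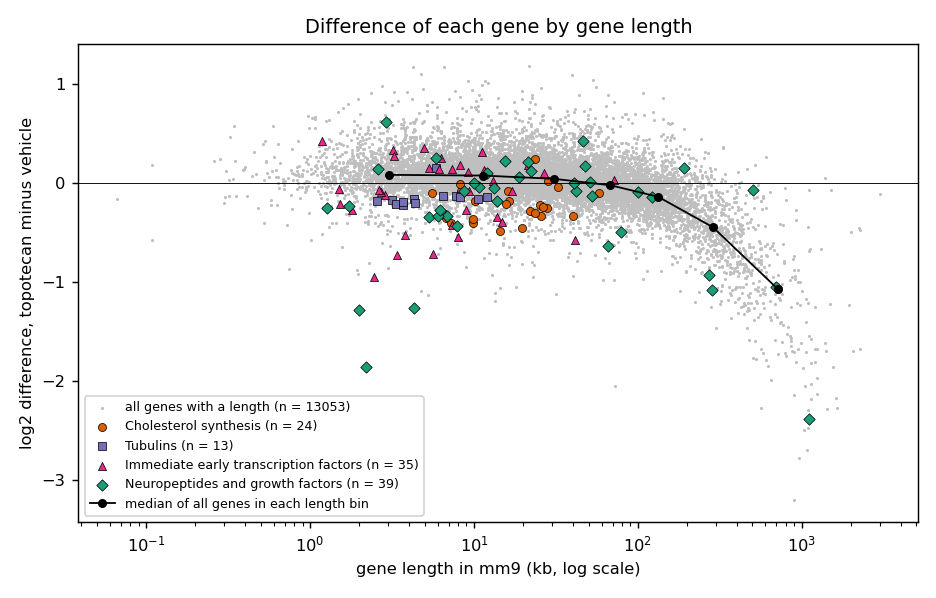
Each grey point is a gene, with its length in mm9 in kb on a log axis and the log2 difference of topotecan minus vehicle on the other axis, and black points are medians of length bins. Coloured symbols mark 4 gene lists, among them the 24 cholesterol genes and 13 tubulins, all shorter than 100 kb, of which 17 and 10 fell.

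Immediate early transcription factors are made within minutes of synaptic activity and bind the enhancers of later activity genes. Of 35 measured, 11 fell (31.4%, against 20.9% of all genes) and 7 rose (20%, against 24.8%), and in the length-adjusted fit, or without the 3 libraries that stand apart, 14 fell and 7 rose. The members that fell most were Egr4 (-0.94), Fos (-0.73), Npas4 (-0.71), Nr4a3 (-0.57, chosen after its value was seen), Nr4a1 (-0.55) and Egr1 (-0.52). Promoters of 4 of them are shown because the letters that the CREB family is known to bind recur in them. TGACG, read on both strands, was found in the 300 bases around the start of 17 of 26 members with an entry (65.4%), in 32.3% of the screen's genes with one and in 21% of all 27025 promoters. It was also found in 51.7% of promoters of other activity-regulated genes, 43.8% of cholesterol synthesis and 33.3% of the unfolded protein response. The 26 were taken whatever their direction, and a link between the motif and a fall was not tested. That motif was chosen after such shares had been seen, and a match is no more than letters in a window. The sequences, from RefSeq on GRCm38.p6, run from 250 bases before to 50 after the start of transcription, with TGACG or its reverse complement in capitals: Fos at chr12:85473640-85473939, plus strand, Npas4 at chr19:4989922-4990221, minus strand, Egr4 at chr6:85513540-85513839, minus strand, and Nr4a1 at chr15:101266596-101266895, plus strand.
Fos: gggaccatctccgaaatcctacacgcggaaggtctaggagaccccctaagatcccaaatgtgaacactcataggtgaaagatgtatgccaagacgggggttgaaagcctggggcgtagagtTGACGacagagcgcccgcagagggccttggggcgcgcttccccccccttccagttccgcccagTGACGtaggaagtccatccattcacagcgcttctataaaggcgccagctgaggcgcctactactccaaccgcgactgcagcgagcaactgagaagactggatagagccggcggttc
Npas4: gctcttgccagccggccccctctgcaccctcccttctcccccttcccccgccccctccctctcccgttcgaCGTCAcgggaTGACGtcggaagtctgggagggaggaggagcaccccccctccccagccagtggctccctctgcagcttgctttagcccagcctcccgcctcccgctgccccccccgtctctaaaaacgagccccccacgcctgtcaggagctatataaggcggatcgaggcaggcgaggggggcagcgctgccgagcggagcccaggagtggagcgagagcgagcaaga
Egr4: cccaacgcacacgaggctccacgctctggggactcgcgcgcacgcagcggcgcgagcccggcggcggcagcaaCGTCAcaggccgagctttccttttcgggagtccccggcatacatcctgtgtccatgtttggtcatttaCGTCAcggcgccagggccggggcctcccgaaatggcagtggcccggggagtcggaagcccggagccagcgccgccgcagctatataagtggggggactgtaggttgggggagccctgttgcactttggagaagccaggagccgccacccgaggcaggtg
Nr4a1: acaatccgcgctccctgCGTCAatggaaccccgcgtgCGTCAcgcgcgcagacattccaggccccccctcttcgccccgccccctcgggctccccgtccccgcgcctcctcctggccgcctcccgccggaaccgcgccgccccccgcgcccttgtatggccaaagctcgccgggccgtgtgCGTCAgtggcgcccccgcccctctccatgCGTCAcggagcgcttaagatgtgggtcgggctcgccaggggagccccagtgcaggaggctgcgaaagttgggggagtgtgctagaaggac

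Fos, a partner in the AP-1 factor and the usual reporter of recent firing, lies at chr12:86814840-86818223 in mm9 with 4 exons. Its deviation ran from -1.82 to 2.49 (median -0.76) with topotecan and from -1.71 to 2.52 (median 0.05) with vehicle (log2 difference -0.73, SE 0.18, adjusted p = 4.06e-04). The groups overlapped widely, with 26 of 32 topotecan libraries below the vehicle median, and the 2 topotecan libraries that stood highest were replicates 15 and 22. Without the 3 libraries named above the difference was -0.85.

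Npas4, a factor induced by calcium entry, lies at chr19:4984355-4989971. It ran from -1.76 to 2.00 (median -0.77) with topotecan and from -1.40 to 2.44 (median 0.12) with vehicle (log2 difference -0.71, SE 0.17, adjusted p = 2.40e-04). Here too 27 of 32 topotecan libraries were below the vehicle median, and the groups overlapped. Egr4 separated better: topotecan libraries ran from -2.65 to 1.11 (median -0.68) and vehicle libraries from -0.69 to 2.00 (median 0.36), with 15 of 32 below every vehicle library (log2 difference -0.94, SE 0.16, adjusted p = 5.23e-07). For Egr1, an early zinc finger factor, the values were from -1.30 to 0.67 (median -0.32) and from -0.45 to 0.82 (median 0.23), and 12 of 32 lay below every vehicle library (log2 difference -0.52, SE 0.08, adjusted p = 4.65e-08).

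Not all members moved that way. Jun (0.34), Myc (0.36) and Cebpd (0.42), chosen after their values were seen, rose, and Jun was above the vehicle median in all 32 topotecan libraries. Egr2 (-0.31) and Fosb (-0.42) did not pass the test, nor did the later activity genes Arc (-0.06) and Nptx2 (-0.11). Topotecan replicates 15 and 22 had list medians of 0.31 and 0.72, against a median of -0.09 over topotecan libraries, and vehicle replicate 39 had the highest list median of its group, 0.44.

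Later activity-regulated genes were lower in 14 of 40 (35%, against 20.9% of all genes) and higher in 6 (15%, against 24.8%), and in the length-adjusted fit in 18 (45%, against 18.3%) and 4 (10%, against 20.4%). Without the 3 libraries that stand apart, the length-adjusted counts were 22 lower and 1 higher. Homer1 is a postsynaptic scaffold with an activity-induced short form. Its topotecan libraries ran from -0.70 to -0.18 (median -0.44) and its vehicle libraries from -0.20 to 0.24 (median -0.01), so that 30 of 32 lay below every vehicle library (log2 difference -0.42, SE 0.026, adjusted p = 5.83e-25). At 101 kb it is long, and the difference after adjustment was -0.32. Bdnf, the neurotrophin, fell as well (-0.51), with Vgf, a secreted granule protein, at -0.49 and Rgs2, a regulator of G proteins, at -0.49. Gadd45b (0.44, chosen after its value was seen) rose.

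Neuropeptides and growth factors were lower in 17 of 39 members (43.6%, against 20.9% of all genes) and higher in 5 (12.8%, against 24.8%). Of the 17, 8 fell by at least 0.5, as did 4.41% of all genes. After adjustment 16 were lower (41%, against 18.3%) and 3 higher (7.7%, against 20.4%). Cartpt, the precursor of an appetite and stress peptide, is only 2.2 kb long (chr13:100668439-100670638, 3 exons). Its topotecan libraries ran from -4.25 to 0.09 (median -2.10) and its vehicle libraries from -1.59 to 1.88 (median -0.25) (log2 difference -1.85, SE 0.19, adjusted p = 6.17e-14). Of 32 topotecan libraries, 21 lay below all vehicle libraries. Crh, the corticotropin-releasing hormone, was at -1.28 and Nppc, the C-type natriuretic peptide, at -1.26, both past the test. Crhbp, which binds Crh and is in no list, fell too (-1.19). Interneuron peptides moved less: Tac1 was at -0.43, Penk at -0.34, Npy at -0.33 and Sst at -0.25, each past the test. Cck went the other way at 0.26, which did not pass after length adjustment (0.19, adjusted p = 0.0610).

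Receptors for other transmitters and peptides were higher in 26 of 66 (39.4%, against 24.8% of all genes) and lower in 15 (22.7%, against 20.9%). After length adjustment 21 were higher (31.8%, against 20.4%) and 15 lower (22.7%, against 18.3%). Of the 56 members up to 100 kb, 25 rose and 10 fell, where 15.5% to 32.6% of all genes rose and 8.09% to 28% fell in the length bins up to 100 kb. Rxfp3, a relaxin-family receptor with 1 exon at chr15:10963472-10967723, ran from -0.02 to 2.37 (median 1.09) with topotecan and from -1.54 to 0.85 (median -0.05) with vehicle (log2 difference 1.17, SE 0.11, adjusted p = 1.10e-15). All 32 topotecan libraries were above the vehicle median and 21 above every vehicle library. Mc4r, a melanocortin receptor, rose by 0.98 and Npy2r, a receptor of neuropeptide Y, by 0.94. Trhr, the receptor of thyrotropin-releasing hormone, and Hcrtr1, an orexin receptor, which were not in the list, rose by 1.09 and 1.03. The serotonin receptor Htr1a, chosen after its value was seen, rose by 0.64. On the other side, Htr2c (-1.10, 235 kb) and the muscarinic receptor Chrm3 (-0.91, chosen after its value was seen) fell. The annotation used for length gives Chrm3 1 exon of 1.95 kb, so its length-adjusted value of -0.98 depends on that entry.

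**Figure D2:**
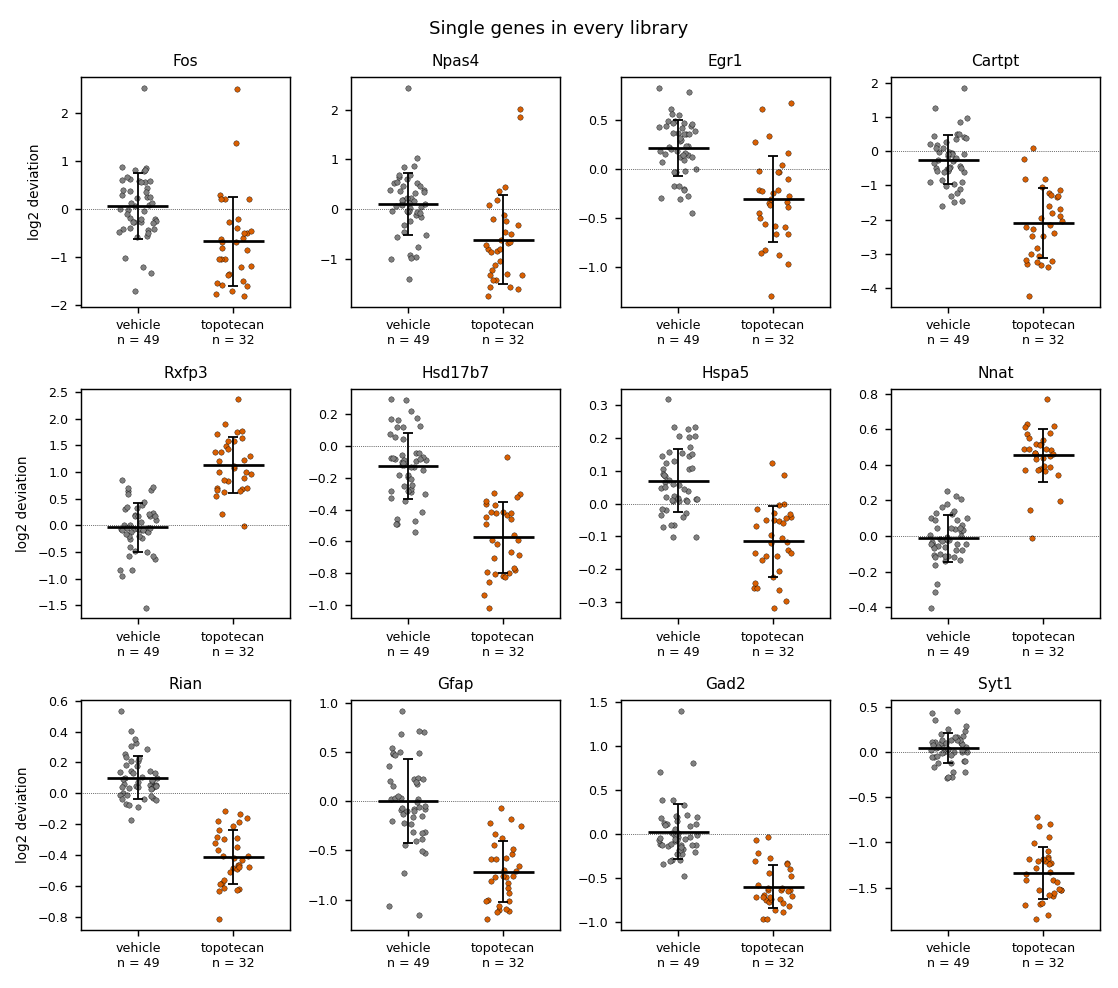
Points are libraries, with the log2 deviation of a gene on the vertical axis, 49 vehicle libraries in grey and 32 topotecan libraries in orange, and bars give mean and SD. Syt1 does not overlap between groups, Nnat and Rian overlap in 3 topotecan libraries each, and Fos and Npas4 overlap widely.

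Glutamate receptors were mostly lower. All 7 metabotropic receptors fell, and 6 of 7 were still lower after length adjustment. Grm5, which couples to Gq at the postsynapse (532 kb), ran from -2.33 to -0.57 (median -1.11) with topotecan and from -0.29 to 0.42 (median 0.06) with vehicle, so that no libraries overlapped (log2 difference -1.21, SE 0.057, adjusted p = 2.54e-32, length-adjusted -0.47). Grm2, a presynaptic autoreceptor of 11.6 kb chosen after its value was seen, was at -0.76 and at -0.83 after adjustment. Among 21 AMPA, kainate and delta subunits, 14 fell (66.7%) and 3 rose (14.3%), and after adjustment 10 (47.6%) and 3 (14.3%). Of the 7 members up to 100 kb, 3 rose. Of 7 genes of the NMDA list 4 fell and 1 rose, with Grin2b at -1.32, Grin2a at -1.05 and the obligatory subunit Grin1 at -0.18. After adjustment 3 were lower. GABA receptor subunits were lower in 9 of 14 (64.3%) and higher in 1 (7.1%), and after adjustment in 7 (50%) and 2 (14.3%).

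Ion channels followed. Of 74 potassium channel genes 7 rose (9.5%) and 36 fell (48.6%), led by Kcnip4, a subunit that modulates A-type channels (-2.03, 1135 kb). After adjustment 30 fell (40.5%) and 10 rose (13.5%). Calcium channel genes were lower in 12 of 20 (60%), but after adjustment in 5 (25%), with 7 higher (35%). Sodium channel genes were lower in 5 of 11 (45.5%) in both fits.

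Genes of vesicle release fell in 44 of 79 (55.7%) and rose in 12 (15.2%), and in 36 (45.6%) and 13 (16.5%) after adjustment. Syt1, the calcium sensor of fast release, was separated in every library: topotecan libraries ran from -1.85 to -0.72 (median -1.34) and vehicle libraries from -0.28 to 0.46 (median 0.05) (log2 difference -1.38, SE 0.05, adjusted p = 1.42e-39). Its length is 513 kb, and -0.66 remained after adjustment. Shorter genes of the list moved less, Syn1, which tethers vesicles, to -0.30 and Snap25, a membrane fusion protein, to -0.16. Postsynaptic scaffold and signalling genes were lower in 37 of 63 (58.7%), and after adjustment in 26 (41.3%), with 16 higher (25.4%). Dlg4, the main scaffold of excitatory synapses, was at -0.02 and did not pass, whereas its paralog Dlg2 (1945 kb) was at -1.23.

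Adhesion genes of the neurexin, contactin and teneurin families fell in 38 of 45 (84.4%) and rose in 4 (8.9%), and after adjustment 27 fell (60%) and 7 rose (15.6%). In the list of autism risk genes 50 of 74 fell (67.6%) and 8 rose (10.8%), where 49 of the 74 are longer than 100 kb. After adjustment 31 fell (41.9%, against 18.3% of all genes) and 19 rose (25.7%, against 20.4%). Some long genes of the synaptic and autism lists were not called in the first fit. Shank2, a postsynaptic scaffold (423 kb), ran from -0.55 to 0.48 (median 0.22) with topotecan and from -0.27 to 0.46 (median 0.16) with vehicle, with no difference past the test (0.01), and stood 0.65 above genes of its length. Lrrtm4, a synaptic organizer (791 kb), was at -0.05 and 0.88, and Auts2 at -0.07 and 1.01.

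Clustered protocadherins, which give neurons surface identities, split by cluster, a grouping made after the values were seen. All 14 Pcdha entries fell, at a median of -0.32, and 21 of 22 Pcdhg entries fell, at -0.06. Entries of each of these clusters share their last exons, so each set stands for about 1 measurement. Of 21 Pcdhb genes, which are single exons, 2 rose and none fell (limma, and 0 at an unadjusted p under 0.05 or by a rank sum test), at a median of 0.07.

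Extracellular matrix genes fell in 19 of 74 (25.7%) and rose in 13 (17.6%), near the shares of all genes, and after length adjustment 13 fell (17.6%) and 18 rose (24.3%). Hapln1, which links hyaluronan to proteoglycans, was at -0.98 with 27 of 32 topotecan libraries below every vehicle library, and Acan, the core proteoglycan, was at -0.97 with 6 of 32 below. Both were chosen after their values were seen. Thbs3, a thrombospondin, rose by 1.03, with 24 of 32 libraries above every vehicle library.

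Cholesterol synthesis starts from acetyl-CoA through the mevalonate steps and is driven by the SREBP factors when sterols are scarce. Of its 24 genes, none longer than 100 kb, 17 fell (70.8%, against 20.9% of all genes) and 1 rose (4.2%, against 24.8%). After adjustment 18 fell (75%, against 18.3%) and 1 rose (4.2%, against 20.4%). The median difference was -0.23 with quartiles of -0.34 and -0.10, against a median of 0.03 over all genes. Genes of the unfolded protein response, which make the chaperones of the endoplasmic reticulum, were lower in 16 of 25 (64%) and higher in 2 (8%), and after adjustment in 19 (76%) and 2 (8%). Promoters of both lists are shown because they share CCAAT letters. CCAAT, read on both strands, was found in 15 of 16 cholesterol promoters with an entry (93.8%) and in 17 of 21 of the unfolded protein response (81%), against 37.9% of all promoters and 38.7% of the screen's. The longer ER stress element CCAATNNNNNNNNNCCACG, which contains CCAAT, was found in 8 of those 21 (38.1%), in none of the 16 cholesterol promoters and in 0.13% of all promoters. These motifs, too, were chosen after shares had been seen. The first 3 sequences have CCAAT or its reverse complement in capitals, at chr13:8885356-8885655, plus strand (Idi1), chr8:122443373-122443672, minus strand (Mvd) and chr5:4104648-4104947, minus strand (Cyp51). The others have the CCAAT and CCACG ends of the element, or of its reverse complement, in capitals, with the bases between in lower case. They lie at chr2:34771840-34772139, plus strand (Hspa5), chr8:84846882-84847181, minus strand (Calr) and chr10:86705395-86705694, minus strand (Hsp90b1), and all 6 are from RefSeq on GRCm38.p6.
Idi1: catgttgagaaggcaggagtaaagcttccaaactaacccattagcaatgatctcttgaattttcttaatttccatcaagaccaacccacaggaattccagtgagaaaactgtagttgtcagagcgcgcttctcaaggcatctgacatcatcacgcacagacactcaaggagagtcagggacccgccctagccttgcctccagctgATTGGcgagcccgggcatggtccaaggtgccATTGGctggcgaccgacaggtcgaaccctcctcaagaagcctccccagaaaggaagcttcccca
Mvd: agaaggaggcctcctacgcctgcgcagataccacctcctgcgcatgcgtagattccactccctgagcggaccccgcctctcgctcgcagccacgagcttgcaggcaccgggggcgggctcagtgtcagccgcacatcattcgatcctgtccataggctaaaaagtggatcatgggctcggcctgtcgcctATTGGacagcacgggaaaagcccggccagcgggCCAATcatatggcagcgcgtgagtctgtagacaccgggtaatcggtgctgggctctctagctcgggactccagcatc
Cyp51: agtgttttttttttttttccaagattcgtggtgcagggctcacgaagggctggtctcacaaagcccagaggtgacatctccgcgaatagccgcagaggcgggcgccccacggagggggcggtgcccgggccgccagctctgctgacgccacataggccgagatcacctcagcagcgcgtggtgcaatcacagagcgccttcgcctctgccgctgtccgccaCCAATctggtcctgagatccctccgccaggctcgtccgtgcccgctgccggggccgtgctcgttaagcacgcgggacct
Hspa5: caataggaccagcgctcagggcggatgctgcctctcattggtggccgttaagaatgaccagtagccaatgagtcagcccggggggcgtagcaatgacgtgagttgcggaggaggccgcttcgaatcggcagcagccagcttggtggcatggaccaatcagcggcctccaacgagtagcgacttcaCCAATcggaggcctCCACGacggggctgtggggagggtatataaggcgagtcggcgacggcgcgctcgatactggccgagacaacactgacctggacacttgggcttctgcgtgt
Calr: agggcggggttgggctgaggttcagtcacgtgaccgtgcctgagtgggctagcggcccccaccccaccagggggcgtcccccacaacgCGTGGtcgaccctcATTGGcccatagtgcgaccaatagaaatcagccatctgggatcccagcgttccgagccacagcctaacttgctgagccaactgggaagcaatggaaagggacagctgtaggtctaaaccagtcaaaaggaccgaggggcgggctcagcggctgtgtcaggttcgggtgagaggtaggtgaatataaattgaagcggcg
Hsp90b1: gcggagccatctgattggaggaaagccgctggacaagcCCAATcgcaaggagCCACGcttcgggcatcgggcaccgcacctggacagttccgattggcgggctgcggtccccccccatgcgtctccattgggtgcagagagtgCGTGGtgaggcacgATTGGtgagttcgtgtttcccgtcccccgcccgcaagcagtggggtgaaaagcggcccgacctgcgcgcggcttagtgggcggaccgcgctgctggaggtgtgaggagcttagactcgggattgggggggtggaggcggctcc

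Hsd17b7, which acts in the late sterol steps, lies at chr1:171879666-171899372. Its topotecan libraries ran from -1.02 to -0.07 (median -0.57) and its vehicle libraries from -0.54 to 0.29 (median -0.11) (log2 difference -0.45, SE 0.049, adjusted p = 4.40e-13). The groups overlapped, and 17 of 32 lay below every vehicle library. The sterol sensor Insig1 fell as well (-0.40), with the phosphomevalonate kinase Pmvk at -0.40 and the transporter Stard4 at -0.48. Idi1 (-0.35), Mvd (-0.36) and Cyp51 (-0.30), enzymes whose promoters are printed above, were chosen after their values were seen. The epoxidase Sqle (-0.08) did not pass, and Srebf1 (0.24, chosen after its value was seen) rose. List medians of topotecan libraries ran from -0.81 to 0.08 and those of vehicle libraries from -0.42 to 0.48, so that 8 of 32 lay below all vehicle libraries.

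Hspa5, the master chaperone of the endoplasmic reticulum, changed little but steadily. Its topotecan libraries ran from -0.32 to 0.12 (median -0.11) and its vehicle libraries from -0.10 to 0.32 (median 0.06), with 17 of 32 below every vehicle library (log2 difference -0.18, SE 0.024, adjusted p = 3.61e-10). Calr (-0.18) and Hsp90b1 (-0.22), chaperones chosen after their values were seen, fell by a similar amount, Sdf2l1 by more (-0.39), and Atf6, a sensor of 163 kb, was at -0.35 and after adjustment at -0.11. Edem1, which sends glycoproteins to degradation, rose (0.24). The list median was lower in 21 of 32 topotecan libraries than in any vehicle library. Targets of ATF4, the factor of amino acid stress, were lower in 7 of 37 (18.9%, against 20.9% of all genes) and higher in 1 (2.7%, against 24.8%). After adjustment 11 were lower (29.7%, against 18.3%) and 1 higher (2.7%, against 20.4%). Atf4 itself fell (-0.33), as did Chac1 (-0.43), while Ddit3 was at -0.04 and did not pass.

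Tubulins form the microtubules of axons and are among the most abundant transcripts of these cells. Of 13 measured 10 fell (76.9%, against 20.9% of all genes) and none rose (limma, and 0 at an unadjusted p under 0.05 or by a rank sum test), with the same counts after adjustment, at a median of -0.16 and -0.23. Tuba1a, the main neuronal alpha tubulin, ran from -0.75 to 0.14 (median -0.14) with topotecan and from -0.29 to 0.35 (median 0.03) with vehicle (log2 difference -0.22, SE 0.038, adjusted p = 1.41e-06), and the groups overlapped in all but 6 of 32 libraries. Tubulin genes are near copies of each other, and how the authors' counting shared such reads was not tested. Kinesins, dyneins and microtubule-associated genes fell in 31 of 60 (51.7%) and rose in 7 (11.7%), and after adjustment in 29 (48.3%) and 10 (16.7%).

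**Figure D3:**
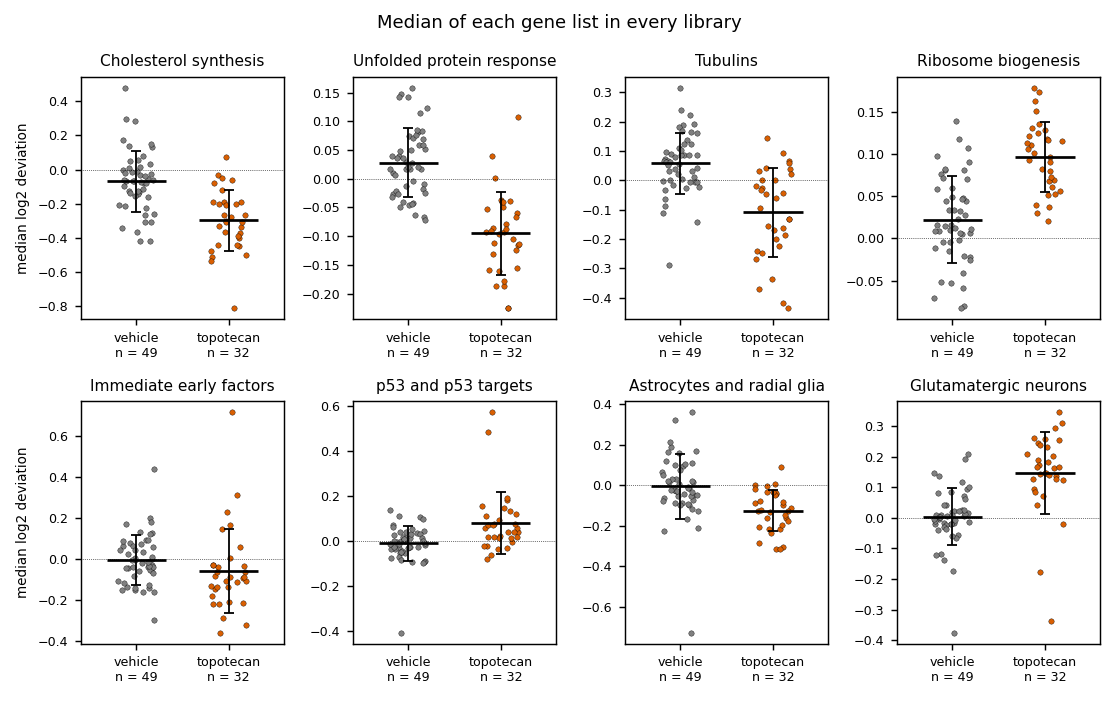
Points are libraries, with the median log2 deviation over the members of a list on the vertical axis, 49 vehicle libraries in grey and 32 topotecan libraries in orange, and bars give mean and SD. Topotecan libraries lie lower for the unfolded protein response, where 21 of 32 are below every vehicle library, and 2 topotecan libraries stand high for the immediate early factors and for p53.

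Families of the ribosome and proteasome were higher in the first fit and near or below the share of all genes after length adjustment. Of 73 cytoplasmic ribosomal proteins 28 rose and none fell (limma, and 0 at an unadjusted p under 0.05 or by a rank sum test), but after adjustment 13 of 72 rose, which is below the 20.4% of all genes. Ribosomal protein genes have many pseudogene copies, and Rps27a, which makes a core ribosomal protein, was at only 1.02 CPM in vehicle cultures, so values of this family are uncertain. Ribosome biogenesis and RNA polymerase I and III went from 20 of 54 higher to 8, and the proteasome from 17 of 35 to 4. Complex I subunits rose in 2 and fell in 1 of 36. Complexes II to V had 1 lower of 42 and none higher (limma, and 0 at an unadjusted p under 0.05 or by a rank sum test). After adjustment 10 of these were lower (23.8%, against 18.3% of all genes) and 1 higher, and the part of their level in this was not tested. Ppargc1a, the coactivator of mitochondrial genes, was below every vehicle library in all 32 topotecan libraries (log2 difference -0.89, SE 0.053, adjusted p = 1.59e-26), and -0.77 remained after adjustment.

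Zinc finger genes with Zfp or Zscan symbols rose in 116 of 352 (33%), but in 71 of 349 (20.3%) after adjustment, the share of all genes. Histone genes of the Hist1 and Hist2 symbols fell in 7 of 11 and rose in 1. The other histone symbols rose in 9 of 13 (69.2%, against 24.8% of all genes) and none fell (limma, and 0 at an unadjusted p under 0.05 or by a rank sum test). After adjustment 7 of the 11 fell and 1 rose, and 7 of the 13 rose and 1 fell. The split of histone symbols was made after the values were seen. Hist1h1c, a linker histone chosen after its value was seen, ran from -0.90 to -0.03 (median -0.50) with topotecan and from -0.25 to 0.69 (median 0.13) with vehicle (-0.64), and 27 of 32 lay below every vehicle library. Library preparation selected polyadenylated RNA, which most histone messages of dividing cells lack. Noncoding host and nuclear RNAs rose in 6 of 23 (26.1%) and fell in 4 (17.4%), near the shares of all genes (24.8% and 20.9%). Host genes of small nucleolar RNAs (Snhg symbols and Gas5), a subgroup made after the values were seen, rose in 6 of 11 and fell in 1, with Gas5 at 0.42. After adjustment 4 of 8 in this subgroup rose and 1 fell. Neat1 (0.15) and Malat1 (0.02), single-exon nuclear RNAs, did not pass.

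Topoisomerases and genes that repair their adducts rose in 7 (29.2%) and fell in 3 (12.5%) of 24, against 24.8% and 20.9% of all genes. After adjustment 4 (16.7%) rose and 3 (12.5%) fell, against 20.4% and 18.3%. Top1, the target of the drug, ran from -0.02 to 0.38 (median 0.15) with topotecan and from -0.23 to 0.33 (median 0.00) with vehicle (log2 difference 0.14, SE 0.029, adjusted p = 3.01e-05), and 31 of 32 topotecan libraries lay above the vehicle median. The groups overlapped in all but 2. Top2b, the enzyme of neurons, was at -0.11 and Top2a, which marks dividing cells, at -0.48. Tdp1, which removes trapped topoisomerase 1, was at 0.00 and did not pass. In RNA polymerase II and elongation factors, 16 of 63 rose (25.4%) and 9 fell (14.3%), near the shares of all genes, and after adjustment 9 rose and 9 fell. Hexim1, the inhibitor of P-TEFb, rose (0.33), as did Polr2a (0.30, chosen after its value was seen), whereas Ell2, an elongation factor, fell (-0.57).

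DNA damage genes gave a divided picture. Of 50 genes of p53 and its targets 17 rose (34%, against 24.8% of all genes) and 3 fell. After adjustment 15 rose (30%, against 20.4%) and 3 fell. Without the 3 libraries that stand apart 17 rose and 6 fell, and after adjustment 10 and 11. Perp, a desmosome protein, rose by 0.44, Phlda3, an inhibitor of Akt, by 0.28, and the checkpoint gene Rprm by 0.36. Cdkn1a, the cell cycle inhibitor p21, ran from -0.38 to 1.48 (median 0.05) with topotecan and from -0.42 to 0.23 (median -0.07) with vehicle (log2 difference 0.20, SE 0.055, adjusted p = 0.00219). Only 3 of 32 topotecan libraries lay above every vehicle library, the difference was 0.12 without the libraries that stand apart, and it did not pass after length adjustment (0.13). Bax (0.12), Mdm2 (0.06) and Ccng1 (0.08) did not pass. Pmaip1, a trigger of apoptosis, fell (-0.27), and 2 topotecan libraries lay above every vehicle library. Genes of double-strand break repair rose in 5 and fell in 5 of 36, under the shares of all genes. Among apoptosis regulators 11 of 32 rose (34.4%), among them the BH3 genes Bcl2l11 (0.47) and Hrk (0.25), and 5 fell (15.6%). After adjustment 9 rose (28.1%) and 6 fell (18.8%).

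Antioxidant genes under NRF2 rose in 15 of 30 (50%, against 24.8% of all genes) and fell in 2 (6.7%, against 20.9%). After adjustment they rose in 9 (30%, against 20.4%) and fell in 2 (6.7%, against 18.3%). Txnrd1, thioredoxin reductase, was above every vehicle library in 15 of 32 (log2 difference 0.30, SE 0.034, adjusted p = 3.58e-12). Nqo1 was at 0.50, a value with a wide spread in vehicle (from -4.25 to 1.18 (median -0.03)), and glutathione reductase Gsr was at 0.34. The cystine carrier Slc7a11 fell (-0.26), and Hmox1 (0.02) and Gclm (0.10) did not pass. Glutathione transferases Gstm2 (1.10) and Gstm6 (0.95) rose, and these neighbours on chromosome 3 are near copies whose reads may be shared. Txnip, chosen after its value was seen, rose by 0.92, above the vehicle median in all 32 libraries. Lipid droplet and fatty acid genes under PPAR rose in 12 of 39 (30.8%) and fell in 4 (10.3%). After adjustment they rose in 7 (17.9%) and fell in 4 (10.3%), both below the shares of all genes (20.4% and 18.3%). Plin2, the coat of lipid droplets, ran from -1.02 to 2.00 (median 0.99) with topotecan and from -3.01 to 0.83 (median -0.23) with vehicle (log2 difference 1.19, SE 0.17, adjusted p = 6.74e-09), with 18 of 32 above every vehicle library. Heat shock genes rose in 15 of 39 (38.5%, against 24.8% of all genes) and fell in 4 (10.3%, against 20.9%). After adjustment they rose in 9 (23.1%) and fell in 8 (20.5%), near the shares of all genes (20.4% and 18.3%).

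Axon guidance genes, which steer growing axons, divided by length. Of 69 measured 32 fell (46.4%) and 23 rose (33.3%), but among the 36 up to 100 kb 22 rose and 5 fell. In the length bins of all genes up to 100 kb, 15.5% to 32.6% rose and 8.09% to 28% fell. After length adjustment 21 of all 69 rose (30.4%, against 20.4% of all genes) and 19 fell (27.5%, against 18.3%). Dcc, the netrin receptor, was at -2.29 and at -1.22 after adjustment, and Robo1, a Slit receptor, at -0.67 and -0.08, so that Dcc lay below genes of its length and Robo1 near them. Cadherins and catenins fell in 15 of 26 (57.7%) and rose in 4 (15.4%), and after adjustment in 13 (50%) and 8 (30.8%).

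MAP kinase, PI3 kinase and mTOR genes fell in 23 of 48 (47.9%) and rose in 6 (12.5%), with Spry2, an inhibitor of receptor signalling, at -0.19. After adjustment 17 fell (35.4%) and 6 rose (12.5%). Protein kinase A and cyclic nucleotide genes, 28 of 59 longer than 100 kb, fell in 25 (42.4%) and rose in 11 (18.6%). After adjustment 16 fell (27.1%, against 18.3% of all genes) and 15 rose (25.4%, against 20.4%). Phosphatases fell in 37 of 113 (32.7%) and rose in 19 (16.8%), and after adjustment in 39 (34.5%) and 23 (20.4%). Wnt genes rose in 14 (28.6%) and fell in 12 (24.5%) of 49, against 24.8% and 20.9% of all genes. After adjustment 9 (18.4%) rose and 9 (18.4%) fell, against 20.4% and 18.3%. In the first fit the secreted inhibitor Wif1 was at -0.80 and the feedback gene Axin2 at 0.20. Fzd receptors, a subgroup made after the values were seen, rose in 6 of 10 and fell in 1. Notch genes rose in 6 (27.3%) and fell in 4 (18.2%) of 22, near the shares of all genes, and after adjustment in 5 each. YAP and TAZ targets rose in 6 (30%) and fell in 2 (10%) of 20, and after adjustment in 7 and 0. In the first fit without the 3 libraries that stand apart, Notch genes rose in 3 and fell in 4, and YAP and TAZ targets in 5 and 4.

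Chromatin remodellers and modifiers rose in 27 (24.5%) and fell in 23 (20.9%) of 110, near the shares of all genes (24.8% and 20.9%). After adjustment they rose in 34 (30.9%) and fell in 11 (10%), against 20.4% and 18.3% of all genes. Splicing and RNA-binding genes rose in 28 (29.5%) and fell in 19 (20%) of 95, and after adjustment in 16 (16.8%) and 20 (21.1%). Rbfox1, a neuronal splicing regulator, was at -1.79 and after adjustment at -0.99. Ubiquitin ligases and deubiquitinases rose in 43 (23.4%) and fell in 47 (25.5%) of 184, and autophagy genes in 9 (25.7%) and 12 (34.3%) of 35. Translation factors and tRNA synthetases rose in 22 (26.5%) and fell in 9 (10.8%) of 83. After adjustment the counts of these lists, in the same order, were 39 and 46, 7 and 6, and 12 and 12 of 82. Mitochondrial ribosomal proteins rose in 17 and fell in 2 of 73, and after adjustment in 5 and 3. Hypoxia genes rose in 6 (26.1%) and fell in 1 (4.3%) of 23, and glycolysis and tricarboxylic acid cycle genes in 9 (23.1%) and 5 (12.8%) of 39. Lipid efflux and lysosome genes rose in 5 (16.1%) and fell in 4 (12.9%) of 31, and metallothioneins and zinc transporters in 7 (29.2%) and 2 (8.3%) of 24. After adjustment hypoxia genes rose in 5 and fell in 3, glycolysis and tricarboxylic acid cycle genes in 4 and 8, lipid efflux and lysosome genes in 4 and 6, and metallothioneins and zinc transporters in 5 and 2. Contractile genes rose in 6 of 18 and none fell (limma, with 2 lower at an unadjusted p under 0.05 and 0 by a rank sum test), and 5 rose and 2 fell without the 3 libraries that stand apart.

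Imprinted genes, expressed from 1 parental copy, were higher in 8 of 45 (17.8%) and lower in 12 (26.7%), near the shares of all genes (24.8% and 20.9%), and after length adjustment in 10 and 8 of 42. Nnat, a short membrane protein gene, ran from -0.01 to 0.77 (median 0.47) with topotecan and from -0.40 to 0.25 (median -0.02) with vehicle, and 29 of 32 lay above every vehicle library (log2 difference 0.47, SE 0.032, adjusted p = 6.60e-23). Rian, a host of small RNAs in the Dlk1-Dio3 region at chr12:110842155-110899919, ran from -0.82 to -0.11 (median -0.42) and from -0.17 to 0.54 (median 0.07), and 29 of 32 lay below (log2 difference -0.52, SE 0.035, adjusted p = 6.86e-23). Its neighbour Mirg fell further (-1.06), Meg3 (-0.15) did not pass and Dio3 rose (0.70), with a wide spread in vehicle (from -3.34 to 1.68 (median 0.13)). On chromosome 7 Ube3a rose (0.27), and Snrpn (-0.36), Snurf (-0.38) and Magel2 (-0.25) fell. Snrpn and Snurf share exons, and Ube3a reads were not separated here from its antisense transcript, since the sources do not give the strand used in counting.

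Of 51 proliferation genes 16 were lower (31.4%, against 20.9% of all genes) and 3 higher, and after adjustment 22 (43.1%, against 18.3%) and 3. Mki67, a marker of cycling, was at -0.48, Cdk1 at -0.64, and Ccnd1, which starts the cycle, rose (0.32). Interferon-stimulated genes were measured in 21 of 42 listed. Of these 6 rose (28.6%, near the 24.8% of all genes) and none fell (limma, with 0 lower at an unadjusted p under 0.05 and 1 by a rank sum test), and 5 rose and 2 fell without the 3 libraries that stand apart. List medians of the interferon genes reached 0.93 in topotecan replicate 15 and lay at -0.76 in vehicle replicate 39. Ifit2 (0.49) and Irf9 (0.35) were among those that rose. Of 29 cytokine and NF-kappaB genes 6 rose (20.7%), among them Il34 (0.78) and Lif (0.54), and 4 fell (13.8%). Both shares were below those of all genes (24.8% and 20.9%).

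Cell type markers were measured after a filter on detection, so absent markers could not be read as zero. Glutamatergic markers rose in 7 of 11 (63.6%) and fell in 4 (36.4%), with the transporter Slc17a6 at 0.58, and the factors Neurod1 at 0.52 and Tbr1 at 0.33. After adjustment 5 rose (45.5%) and 4 fell (36.4%). Transcription factors of cortical layers fell in 19 of 27 (70.4%) and rose in 3 (11.1%), and after adjustment in 11 (40.7%) and 6 (22.2%), and 15 of the 27 are longer than 100 kb. Rorb, of the granular layer, was at -1.09 and at -0.82 after adjustment, and Fezf2, of deep layers, rose (0.19). General neuronal markers fell in 8 of 15 (53.3%) and rose in 4 (26.7%), and after adjustment in 6 (40%) and 5 (33.3%). GABAergic markers fell in 13 of 26 (50%) and rose in 4 (15.4%), and after adjustment in 12 (46.2%) and 3 (11.5%). Gad2, which makes GABA, ran from -0.97 to -0.04 (median -0.64) and from -0.48 to 1.40 (median -0.04), with 22 of 32 below every vehicle library (log2 difference -0.62, SE 0.065, adjusted p = 1.03e-13). Gad1 (-0.50) and the vesicular transporter Slc32a1 (-0.29) also fell, while the interneuron factor Lhx6 (0.01) did not pass.

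Astrocyte and radial glia markers were lower in 11 of 27 (40.7%) and higher in 5 (18.5%), and after adjustment in 11 (40.7%) and 3 (11.1%). Gfap, the astrocyte filament, ran from -1.20 to -0.06 (median -0.76) with topotecan and from -1.16 to 0.93 (median -0.05) with vehicle (log2 difference -0.72, SE 0.087, adjusted p = 3.61e-11), and all 32 topotecan libraries were below the vehicle median. Aqp4 (-0.51) and Slc1a3 (-0.50) fell, whereas Vim (0.32) and Nes (0.29) rose. Medians over the list ran from -0.32 to 0.09 in topotecan and from -0.73 to 0.36 in vehicle libraries. Microglial markers were measured in 9 of 24 listed, with 1 higher, 1 lower (Cx3cr1, -0.60) and the rest not past the test, and their list median ran from -0.36 to 0.60 in topotecan and from -0.60 to 0.57 in vehicle libraries. Oligodendrocyte markers, 9 of 19 measured, rose in 3 and fell in 2 (after adjustment 2 and 3), endothelial and fibroblast markers, 11 of 22 measured, in 1 and 2, and markers of Cajal-Retzius cells and intermediate progenitors in 3 and 2 of 9. Eomes, of intermediate progenitors, was at -0.46, and Reln, which Cajal-Retzius cells secrete, at -1.46 and -0.79 after adjustment. The part of cell composition in the results above was not tested.

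Among the 15 genes that rose most were, beside those named above, Ctxn2 (0.99), Ptprh (0.97) and Serinc2 (0.96), and D8Ertd82e (1.05), a kinase-like gene that was above every vehicle library in 29 of 32. The largest falls among genes of at most 100 kb after adjustment were Nkain2 (-2.01, annotated over 72.6 kb), Cartpt (-1.93), Crh (-1.35), Nppc (-1.33) and Crhbp (-1.25). Nkain2 lay below every vehicle library in all 32 topotecan libraries.

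**Figure D4:**
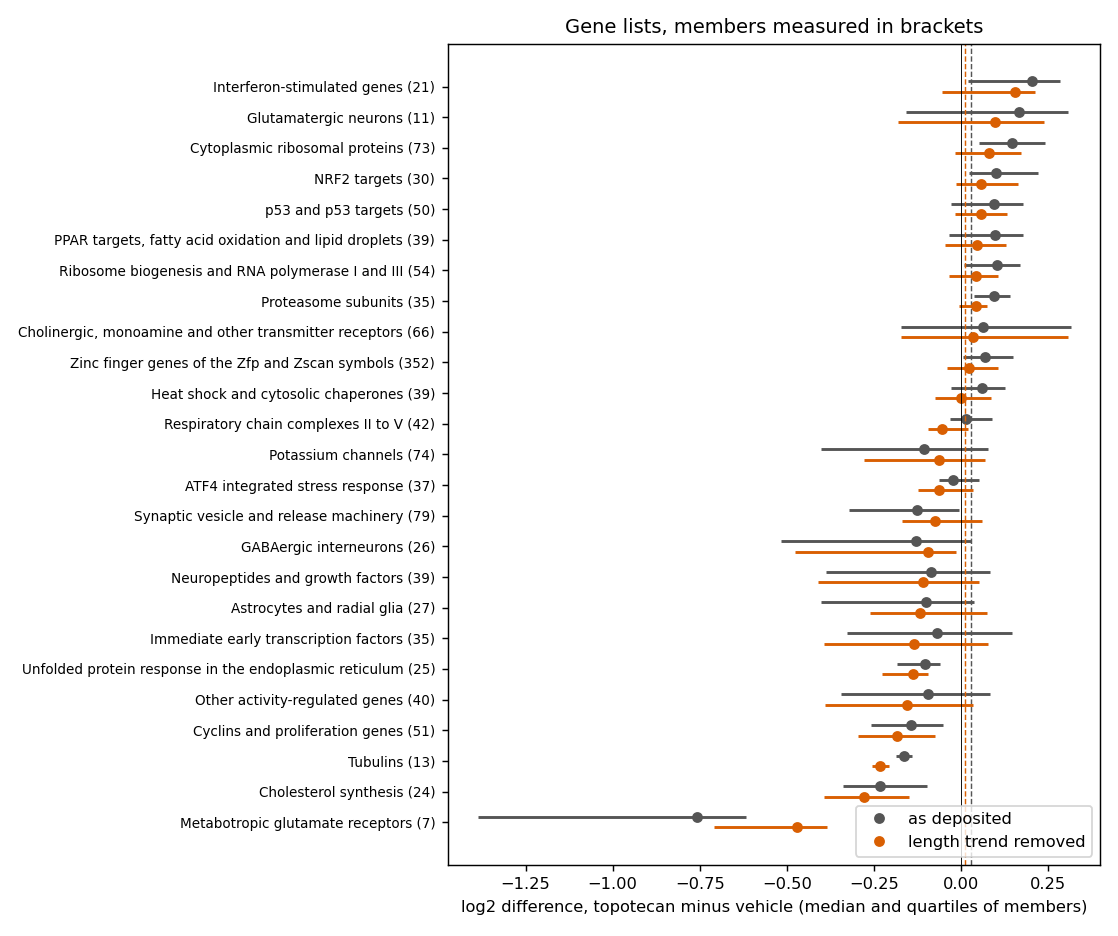
Points are medians and lines are quartiles of the log2 difference over the members of 25 gene lists, grey as deposited and orange with the length trend removed, with dashed lines at the median of all genes in each fit. Ribosomal, ribosome biogenesis and proteasome genes lie right of the median in grey and nearer to it in orange, while cholesterol, tubulin and unfolded protein response genes lie left of it in both.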

How the data were processed

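Polyadenylated RNA was sequenced as 50-base read pairs. Per the labels and the study's methods, the authors removed adapter reads (TagDust), mapped the rest by TopHat on mm9, counted RefSeq genes joined by symbol, computed RPKM and kept genes above a minimum length that were detected in most samples. The deposited screen values are log10, quantile-normalized, centred per gene and freed of batch by a mixed model, and were converted to log2 here. The screen table gives no counts or depth, and no label names a batch. Levels (CPM) came from 4 vehicle libraries of deposited counts with totals of 2778615 to 7833440.

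Groups were compared with limma 3.58.1 in R 4.3.3 (two-sided, no variance trend, Benjamini-Hochberg over all genes), and lists by counts and medians with no test. The length-adjusted fit removed a lowess curve (span 0.3) on GENCODE M1 gene length from each library. The fit was tested on simulated data. Alternatives covered the threshold, filters, variance options, a rank sum test, other controls and left-out libraries, the last including a set of 3 chosen after seeing the data. Named genes were the 15 largest rises and falls, the 10 largest of each up to 100 kb after adjustment, genes marked in the lists (62 of pathways and families, 9 of cell types) and the 3 largest called in each list. Others were chosen after their values were seen, as were motifs, promoters and subgroups. Members and lists were chosen with earlier results of these data known. Promoters are from RefSeq (GRCm38.p6).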

Additional observations from a re-analysis of the deposited data

How the results depend on the processing

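No paired analysis was possible because the topotecan and vehicle labels share no replicate numbers, and the numbers used here follow accession order and only name libraries. Keeping only genes with an SD above 0.1 on the log10 scale over the screen left 1025 genes higher and 759 lower, 377 of them lower by at least 0.5, and 823 higher and 533 lower after length adjustment, since fewer genes were tested. The other 115 of 120 counts of calls stayed within 1.5 times. Of 42 genes tried in 572 comparisons, 38 kept their call in every setting and none turned direction. Cck (0.19) and Cdkn1a (0.13) lost their calls after length adjustment, Cdkn1a also against 294 libraries of other chemicals (0.07), and Rps27a and Nqo1 at a threshold of 0.01. Against those other chemicals 17 immediate early factors and 19 ATF4 genes were lower, in place of 11 and 7, and the cause was not tested. Of 152 counts over 19 lists, 128 stayed within 1.5 times. Without the 3 libraries that stand apart, small counts moved by more than that in several lists beside those in the text, among them ATF4 genes higher (2 in place of 1), NRF2 genes lower after adjustment (4 in place of 2), hypoxia genes lower (2 in place of 1), NMDA genes higher (0 in place of 1), protocadherins higher (9 in place of 5) and complexes II to V higher (1 in place of 0). The screen table holds no counts, so the depth behind these values is unknown, and batches could not be examined.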
